A study of Mus musculus with 12 samples.

Results

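The genes described here handle zinc in the cell. They are 3 metallothioneins (Mt1, Mt2 and Mt3), the zinc-sensing transcription factor Mtf1, 3 exporters of the Slc30 (ZnT) family (Slc30a1, Slc30a3 and Slc30a10) and 3 importers of the Slc39 (ZIP) family (Slc39a8, Slc39a12 and Slc39a14). They were chosen by symbol, as 10 of the 55471 genes in the count table, and each of the 10 was among the 19578 genes that passed the filter on low counts. Their levels were measured by RNA-seq in hippocampal neuron cultures from wild-type embryonic CD1 mice. A gapmer is an antisense oligonucleotide that directs RNase H to its target RNA. Cultures received gapmers against the lncRNA Neuid (Neuid KD, 6 libraries) or control gapmers without a known target (control, 6 libraries) in lipid nanoparticles at day 7 in vitro (DIV 7), and RNA was isolated at DIV 10. The only difference between the groups in the labels is the gapmer. The sources do not say whether the 6 libraries of a group came from separate cultures, so p-values measure the spread between these libraries, which may be technical.

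Zinc is held at a low free level in cells by metallothioneins, small cysteine-rich proteins that bind zinc and copper. Mt1 and Mt2 are made in most tissues, in the brain mainly by astrocytes, whereas Mt3 is the brain form. ZnT proteins move zinc out of the cytosol and ZIP proteins bring it in. When zinc is high, MTF1 binds metal response elements near the start of Mt1, Mt2 and Slc30a1, which codes for the main zinc exporter of the cell surface. Neurons that use glutamate also load zinc into synaptic vesicles through ZnT3, the product of Slc30a3. ZnT10, ZIP8 and ZIP14 carry manganese as well, and ZIP12 is a brain-enriched zinc importer.

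The promoter windows below are shown to look for the letters that MTF1 is known to read, and because 3 of these 5 genes changed and the others did not pass the test. Each window runs from 250 bases before to 50 bases after a gene start in RefSeq on GRCm38.p6, on the plus strand, and capitals mark the metal response element cores TGCACNC and TGCGCNC on either strand. Overlapping matches were each counted.
Mt1 (chr8:94178839-94179138): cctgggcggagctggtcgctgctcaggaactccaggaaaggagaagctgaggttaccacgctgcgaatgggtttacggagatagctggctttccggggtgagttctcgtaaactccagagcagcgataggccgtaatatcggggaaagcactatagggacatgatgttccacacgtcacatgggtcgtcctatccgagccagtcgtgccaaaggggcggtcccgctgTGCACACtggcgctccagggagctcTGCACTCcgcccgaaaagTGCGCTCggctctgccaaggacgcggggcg
Mt2 (chr8:94172368-94172667): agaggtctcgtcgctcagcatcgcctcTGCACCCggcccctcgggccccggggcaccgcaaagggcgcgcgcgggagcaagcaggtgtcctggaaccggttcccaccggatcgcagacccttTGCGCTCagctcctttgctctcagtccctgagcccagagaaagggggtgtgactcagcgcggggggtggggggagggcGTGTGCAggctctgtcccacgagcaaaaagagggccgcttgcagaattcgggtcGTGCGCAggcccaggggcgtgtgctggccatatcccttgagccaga
Mt3 (chr8:94152357-94152656): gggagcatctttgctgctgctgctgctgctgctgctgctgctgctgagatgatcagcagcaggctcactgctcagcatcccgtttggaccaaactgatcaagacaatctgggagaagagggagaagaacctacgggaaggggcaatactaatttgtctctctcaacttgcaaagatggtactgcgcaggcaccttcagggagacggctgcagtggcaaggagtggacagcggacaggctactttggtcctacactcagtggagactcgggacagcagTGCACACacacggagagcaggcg
Slc30a10 (chr1:185454598-185454897): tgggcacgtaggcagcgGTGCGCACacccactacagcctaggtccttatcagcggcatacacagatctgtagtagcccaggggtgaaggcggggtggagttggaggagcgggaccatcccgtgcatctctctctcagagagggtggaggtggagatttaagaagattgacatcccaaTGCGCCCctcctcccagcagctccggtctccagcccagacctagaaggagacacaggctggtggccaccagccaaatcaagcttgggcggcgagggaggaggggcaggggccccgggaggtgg
Slc39a12 (chr2:14388148-14388447): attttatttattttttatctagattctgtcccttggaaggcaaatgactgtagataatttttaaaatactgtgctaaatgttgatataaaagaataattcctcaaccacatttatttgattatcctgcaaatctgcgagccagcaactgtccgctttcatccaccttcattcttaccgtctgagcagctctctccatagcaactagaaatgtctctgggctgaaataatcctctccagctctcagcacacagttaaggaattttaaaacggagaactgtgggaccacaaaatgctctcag
The Mt2 window held 4 cores, the Mt1 and Slc30a10 windows 3 each, and the Mt3 window 1, while the Slc39a12 window held none. Of the 3 matches for Slc30a10, 2 overlap on opposite strands. Over the 32851 windows of the table, 25.7% held at least 1 core, 1.97% held at least 3 and 0.517% held at least 4. Among the other members, the Slc30a1 window held 2 cores and the Mtf1 window none. For Slc39a8 and Slc30a3, 1 of the windows listed for each held 1 core. No entry was found for Slc39a14. GENCODE also lists starts downstream of the first start of a gene that lie beyond the window shown. They lie 129 and 159 bases downstream for Mt1, 196 for Mt2, 139 for Mt3 and 196 for Slc39a12.

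Neuid itself (Gm10419, ENSMUSG00000072769) was lower in every Neuid KD library, at 6.32 to 9.55 CPM against 26.0 to 31.0 CPM in control. CPM is the usual scaled read count, here corrected for library size and composition. In the quasi-likelihood test of edgeR its log2 fold change was -1.81 (SE 0.0845, adjusted p = 1.32e-10). Libraries held 11152556 to 30914714 counted reads. They also differed in background, measured as the summed level of 2014 chemosensory receptor genes, which ran from 26.7 to 667 CPM. Libraries at or above 100 CPM are called high background here (4 control and 3 Neuid KD libraries), and those under it low background (2 control and 3 Neuid KD libraries). Over all tested genes, 1235 were higher and 473 lower in Neuid KD at an adjusted p under 0.05, and with upper-quartile scaling the split was 1049 higher and 1259 lower. The median log2 fold change of all tested genes was -0.03.

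Of the 10 genes, 3 rose and none fell in Neuid KD, with edgeR and with DESeq2 alike, and none was lower at an unadjusted p under 0.05 in edgeR. Slc39a12 rose most, to 3.20 times the control level, and Mt3 and Slc30a10 rose to 1.33 and 1.41 times. For these 3 genes every Neuid KD library lay above every control library. Mt1, Mt2, Mtf1, Slc30a1, Slc30a3, Slc39a8 and Slc39a14 did not pass the test. The share of all tested genes that were called higher was 6.31%, and 2.42% were called lower. Groups that did not overlap, with Neuid KD higher, were seen for 4.13% of tested genes. The median log2 fold change of the 10 genes was 0.11. With a log2 fold change above 0.5 required in addition, 1 of the 10 genes was called (Slc39a12), as were 2.44% of all tested genes in the same direction and 0.792% in the other. In bulk RNA from a mixed culture, a change in the number of cells of a type and a change in RNA per cell cannot be told apart. Astrocyte markers moved with the rise of these 3 genes. Of 12 markers, 11 were tested and 10 of these rose, and the summed level of the 12 ran from 1740 to 2180 CPM in control and from 3190 to 3880 CPM in Neuid KD. Their part in the result was not tested.

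**Figure D1:**
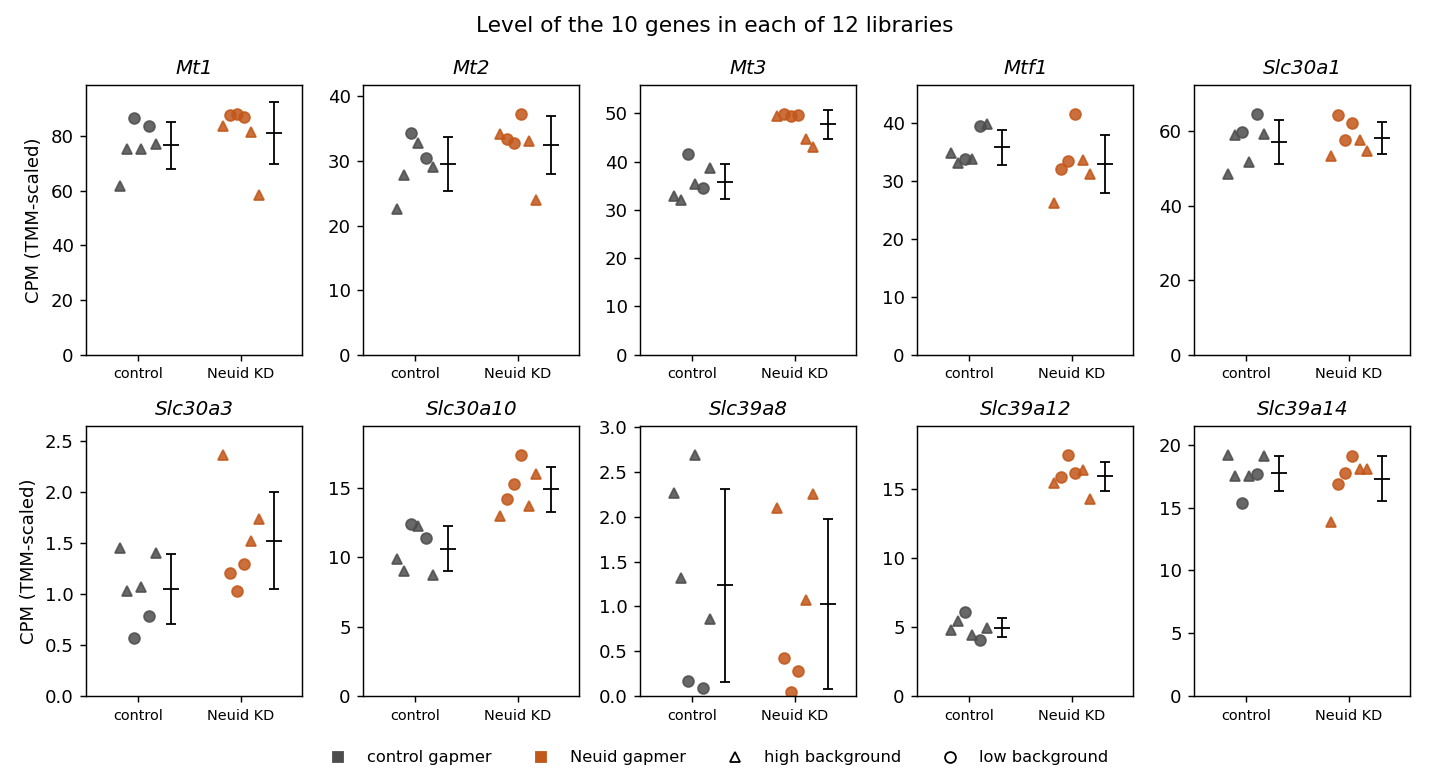
Level of each of the 10 genes in CPM (vertical axes, each starting at 0) in the 6 control and 6 Neuid KD libraries, with triangles for high and circles for low background, and with the mean and SD of each group beside the points. Slc39a12, Slc30a10 and Mt3 show no overlap between the groups, and Slc39a8 spreads from 0.0468 to 2.69 CPM with all circles below all triangles.

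Among the metallothioneins, Mt3 was the only one that passed the test. Mt3 (chromosome 8 of GRCm38, 94152607 to 94154146) codes for the brain form of the family, which binds zinc and copper in neurons and astrocytes. In control replicates 1 to 6 it was at 32.8, 32.1, 41.5, 35.3, 34.5 and 38.6 CPM, and in Neuid KD replicates 1 to 6 at 49.5, 49.9, 49.4, 49.7, 44.7 and 43.1 CPM. The lowest Neuid KD library (43.1 CPM) thus lay just above the highest control library (41.5 CPM). The means were 35.8 ± 3.61 and 47.7 ± 3.00 CPM (SD, n = 6 each), or a log2 fold change of 0.41 (95% interval 0.27 to 0.55, adjusted p = 3.52e-04 from edgeR). It was 0.40 within high background libraries and 0.35 within low background libraries. With offsets for GC content and transcript length in the fit, the log2 fold change was 0.47 and the call was lost (adjusted p = 0.109 from edgeR); that fit called 396 genes higher and 103 lower over the whole table.

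Mt1 (chromosome 8, 94179082 to 94180327) had the highest CPM of the 10 genes. Control replicates 1 to 6 gave 61.6, 75.4, 86.6, 75.1, 83.6 and 77.0 CPM, and Neuid KD replicates 1 to 6 gave 83.8, 87.5, 88.1, 86.8, 81.5 and 58.4 CPM. The groups overlapped, with Neuid KD replicate 6 below all control libraries. The means were 76.6 ± 8.68 and 81.0 ± 11.3 CPM (SD, n = 6 each), and the log2 fold change of 0.08 had an interval of -0.12 to 0.28 (adjusted p = 0.774 from edgeR).

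Mt2 (chromosome 8, 94172664 to 94173568) lies beside Mt1, with 5513 bases between them, and is usually switched on together with it. It was at 22.6, 27.8, 34.4, 32.8, 30.4 and 29.1 CPM in control replicates 1 to 6 and at 34.1, 33.4, 32.8, 37.3, 33.1 and 23.9 CPM in Neuid KD replicates 1 to 6. As with Mt1, the lowest libraries were control replicate 1 and Neuid KD replicate 6, and the groups overlapped. The log2 fold change was 0.14 (interval -0.08 to 0.35, adjusted p = 0.584 from edgeR). The gene overlaps the antisense gene Gm45774 on the other strand, and the strand setting of the counting is not given in the sources used here.

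Ratios between the metallothioneins were compared library by library, which takes out what a library does to all of them. There were 2.60 Mt1 reads for each Mt2 read in control (geometric mean, range 2.29 to 2.75) and 2.32 to 2.69 in Neuid KD. This ratio did not differ beyond the spread (exact permutation test, two-sided, p = 0.262), although without control replicate 4 the difference of -0.10 on the log2 scale did (exact permutation p = 0.0346). The ratios with Mt3 were added after the values had been seen, and are given as a description, with no test. Mt3 reads per Mt1 read ran from 0.412 to 0.533 in control against 0.549 to 0.738 in Neuid KD, so that the groups did not overlap. Mt3 reads per Mt2 read ran from 1.08 to 1.45 in control against 1.33 to 1.80 in Neuid KD, with an overlap. On the log2 scale the means of the 2 ratios were 0.34 and 0.28 higher in Neuid KD.

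**Figure D2:**
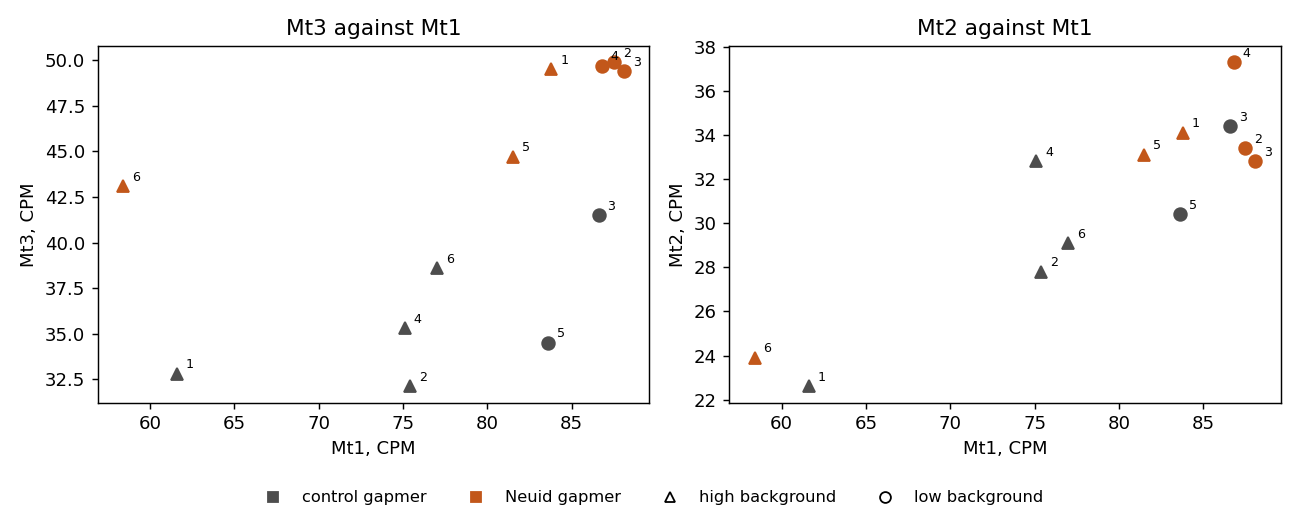
Mt3 (left) and Mt2 (right) in CPM against Mt1 in CPM (horizontal axes), 1 point per library, numbered by replicate. Neuid KD points lie above control points for Mt3 at the same Mt1 level, with Neuid KD replicate 6 at 58.4 CPM of Mt1 and 43.1 CPM of Mt3, whereas for Mt2 the points of both groups lie along the same band.

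Mtf1 (chromosome 4, 124802104 to 124849800) codes for the transcription factor that senses zinc. It ran from 33.1 to 39.7 CPM in control and from 26.1 to 41.5 CPM in Neuid KD, and the Neuid KD range enclosed the control range. The log2 fold change was -0.11 (interval -0.29 to 0.08, adjusted p = 0.625 from edgeR). Of its known targets, Mt1 and Mt2 are described above and Slc30a1 follows. The gene overlaps 1110065P20Rik on the opposite strand and a 5S rRNA gene on the same strand.

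Among the exporters, Slc30a10 rose. It codes for ZnT10, which is best known for carrying manganese out of cells, and lies on chromosome 1 (185454848 to 185468762). Control replicates 1 to 6 were at 9.91, 9.01, 12.4, 12.3, 11.4 and 8.72 CPM, and Neuid KD replicates 1 to 6 at 13.0, 14.2, 15.3, 17.4, 13.7 and 16.0 CPM. The gap between the groups was small, from 12.4 to 13.0 CPM, next to a spread of several CPM within each. The means were 10.6 ± 1.63 and 14.9 ± 1.63 CPM (SD, n = 6 each), or a log2 fold change of 0.49 (interval 0.29 to 0.70, adjusted p = 0.00279 from edgeR). It was 0.53 within high background libraries (adjusted p = 0.00471 from edgeR) and 0.36 within low background libraries (adjusted p = 0.0497 from edgeR). With GC and length offsets it was 0.53 and not called (adjusted p = 0.336 from edgeR). The lincRNA Gm2061 overlaps it on the opposite strand.

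Slc30a1 (chromosome 1, 191906767 to 191913247), the cell surface zinc exporter and a textbook MTF1 target, was at 48.5 to 64.7 CPM in control and at 53.3 to 64.3 CPM in Neuid KD. The Neuid KD range lay inside the control range. The log2 fold change was 0.03 (interval -0.12 to 0.18, adjusted p = 0.889 from edgeR), and its sign changed with the scaling, to -0.03 with upper-quartile scaling. The antisense gene 1700034H15Rik overlaps it.

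Slc30a3 (chromosome 5, 31086106 to 31108237), which loads synaptic vesicles with zinc, had few reads, 17 to 37 per library. Control libraries ran from 0.567 to 1.45 CPM and Neuid KD libraries from 1.03 to 2.36 CPM, of which 3 lay above all control libraries. The log2 fold change was 0.53 (interval -0.16 to 1.22, adjusted p = 0.452 from edgeR), and it was 0.33 without Neuid KD replicate 1. Within both background classes the groups did not overlap, at 1.03 to 1.45 against 1.52 to 2.36 CPM in high background libraries. In low background libraries they were at 0.567 to 0.786 against 1.03 to 1.29 CPM. The gene did not pass the test in either class. The log2 fold change was 0.59 within high background (adjusted p = 0.77 from edgeR) and 0.78 within low background (adjusted p = 0.352 from edgeR). Each class holds few libraries, so that groups can separate by chance. The share of all tested genes without an overlap within a class was not counted. Adjusted p over the 23 alternatives ran from 0.0518, with DESeq2 and an RUVs factor, to 0.859. Dnajc5g and Gm9924 overlap the gene on the opposite strand.

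The largest change of the 10 genes was that of the importer Slc39a12. It codes for ZIP12, a zinc importer found mainly in the brain, and lies on chromosome 2 (14388316 to 14494977). Control replicates 1 to 6 were at 4.80, 5.42, 6.07, 4.45, 4.07 and 4.93 CPM, and Neuid KD replicates 1 to 6 at 15.5, 15.9, 17.5, 16.2, 16.4 and 14.3 CPM. The lowest Neuid KD library was thus far above the highest control library, and libraries of each group lay close together. The means were 4.96 ± 0.710 and 16.0 ± 1.04 CPM (SD, n = 6 each), or a log2 fold change of 1.68 (interval 1.49 to 1.87, adjusted p = 4.66e-10 from edgeR). Counts behind these values were 88 to 182 reads in control and 184 to 462 reads in Neuid KD. The change kept its call under each of 23 alternative fits, with log2 fold changes between 1.62 and 1.76.

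Slc39a14 (chromosome 14, 70303469 to 70351425), which codes for ZIP14, an importer of zinc, iron and manganese, was at 15.4 to 19.2 CPM in control and at 13.9 to 19.1 CPM in Neuid KD. The groups overlapped almost fully. Its log2 fold change was -0.02 (interval -0.18 to 0.13, adjusted p = 0.930 from edgeR), and it was 0.09 within low background libraries.

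Slc39a8 (chromosome 3, 135825279 to 135888572), the gene of the related importer ZIP8, differed between libraries of high and low background. In low background libraries it was at 0.0925 to 0.167 CPM in control and at 0.0468 to 0.427 CPM in Neuid KD, which is 1 to 11 reads. In high background libraries it was at 0.859 to 2.69 CPM in control and at 1.07 to 2.25 CPM in Neuid KD, or 19 to 58 reads. All high background libraries thus lay above all low background libraries in both groups. The log2 fold change of -0.28 had a wide interval (-1.95 to 1.38, adjusted p = 0.909 from edgeR), and its sign changed to 0.19 with the background level as a covariate. 4933401H06Rik overlaps the gene on the opposite strand, and Gm43428 and Gm43429 on the same strand.

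**Figure D3:**
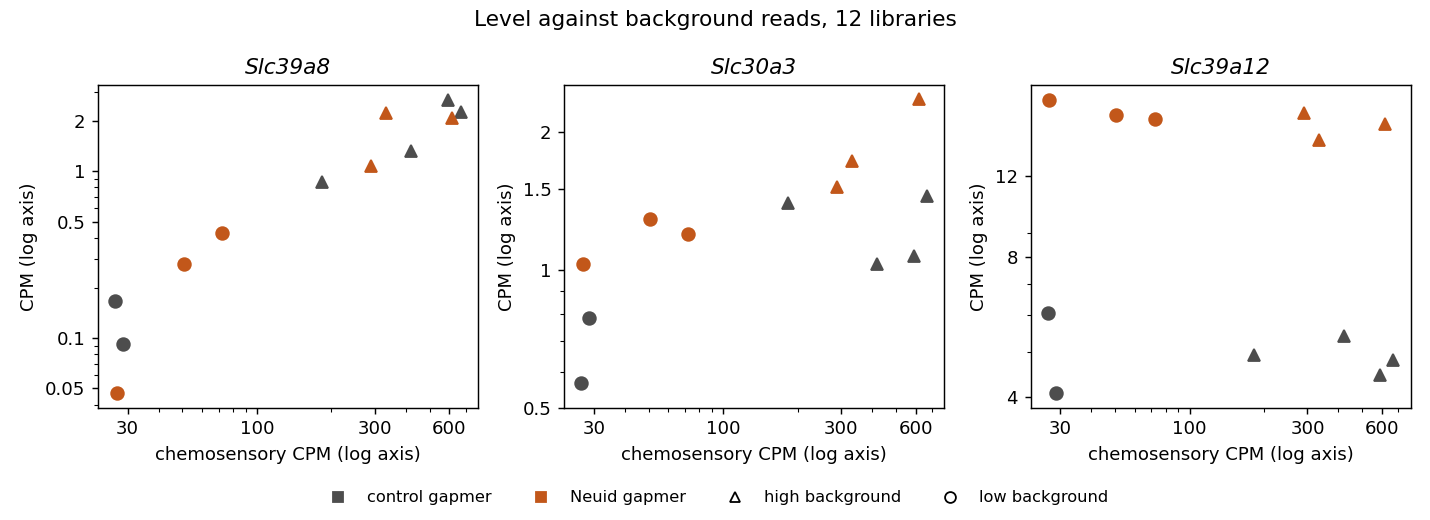
Level of Slc39a8, Slc30a3 and Slc39a12 in CPM against the summed level of chemosensory receptor genes in CPM, both on log axes, 1 point per library. Slc39a8 rises with background in both groups, Slc30a3 rises less steeply with Neuid KD libraries toward the upper side, and Slc39a12 keeps the groups apart at every background level.

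Levels of different genes were compared as CPM per kb of annotated exons, all transcripts merged. In control, Mt1 was highest, at 61.4 ± 6.96 CPM per kb (SD, n = 6 here and below), followed by Mt2 at 50.2 ± 7.04 and Mt3 at 33.6 ± 3.38 CPM per kb. Neighbours in this order overlapped in range down to Mt3. Slc30a1 came next at 10.9 ± 1.13 CPM per kb and Mtf1 at 4.01 ± 0.334 CPM per kb, both clear of their neighbours. Slc30a10 (1.82 ± 0.280 CPM per kb), Slc39a14 (1.68 ± 0.131) and Slc39a12 (1.65 ± 0.237) could not be ordered, since their ranges overlapped. Slc30a3 and Slc39a8 were lowest, at 0.370 ± 0.121 and 0.161 ± 0.140 CPM per kb, and overlapped. In Neuid KD the order was the same except for Slc39a12, which at 5.33 ± 0.347 CPM per kb moved from place 8 to place 5, above Mtf1 at 3.70 ± 0.563 CPM per kb, and did not overlap with it. Exons of all transcripts were merged for the length, so a gene with a rarely used long transcript comes out low.

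Few of the other genes of the same families passed the test. Of 19 further metallothionein, Slc30 and Slc39 genes, 14 were tested, 2 rose and none fell at an adjusted p under 0.05, against 6.31% higher and 2.42% lower among all tested genes. Their median log2 fold change was 0.03. Slc39a1, the gene of the cell surface importer ZIP1, went from 10.9 ± 1.43 to 13.3 ± 0.702 CPM (SD, n = 6 each), or a log2 fold change of 0.28 (adjusted p = 0.0397 from edgeR), with 5 of 6 Neuid KD libraries above all control libraries. Slc30a7, whose product ZnT7 brings zinc into the Golgi, went from 23.2 ± 1.62 to 26.5 ± 1.26 CPM, with a log2 fold change of 0.19 (adjusted p = 0.0351 from edgeR). Both calls were weak, since Slc39a1 kept an adjusted p under 0.05 in 5 of 23 alternative fits and Slc30a7 in 4 of 23, and leaving out any 1 library left at most 1 of the 2 called. None of the 14 was lower at an unadjusted p under 0.05 in edgeR, and DESeq2 also called 2 higher and 0 lower, with 1 lower once an RUVs factor was added. Mt4, Slc30a2, Slc30a8, Slc39a4 and Slc39a5 were too low to be tested. The tested genes with the widest intervals were Slc39a8 and Slc39a2, the latter at 0 to 2.48 CPM.

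**Figure D4:**
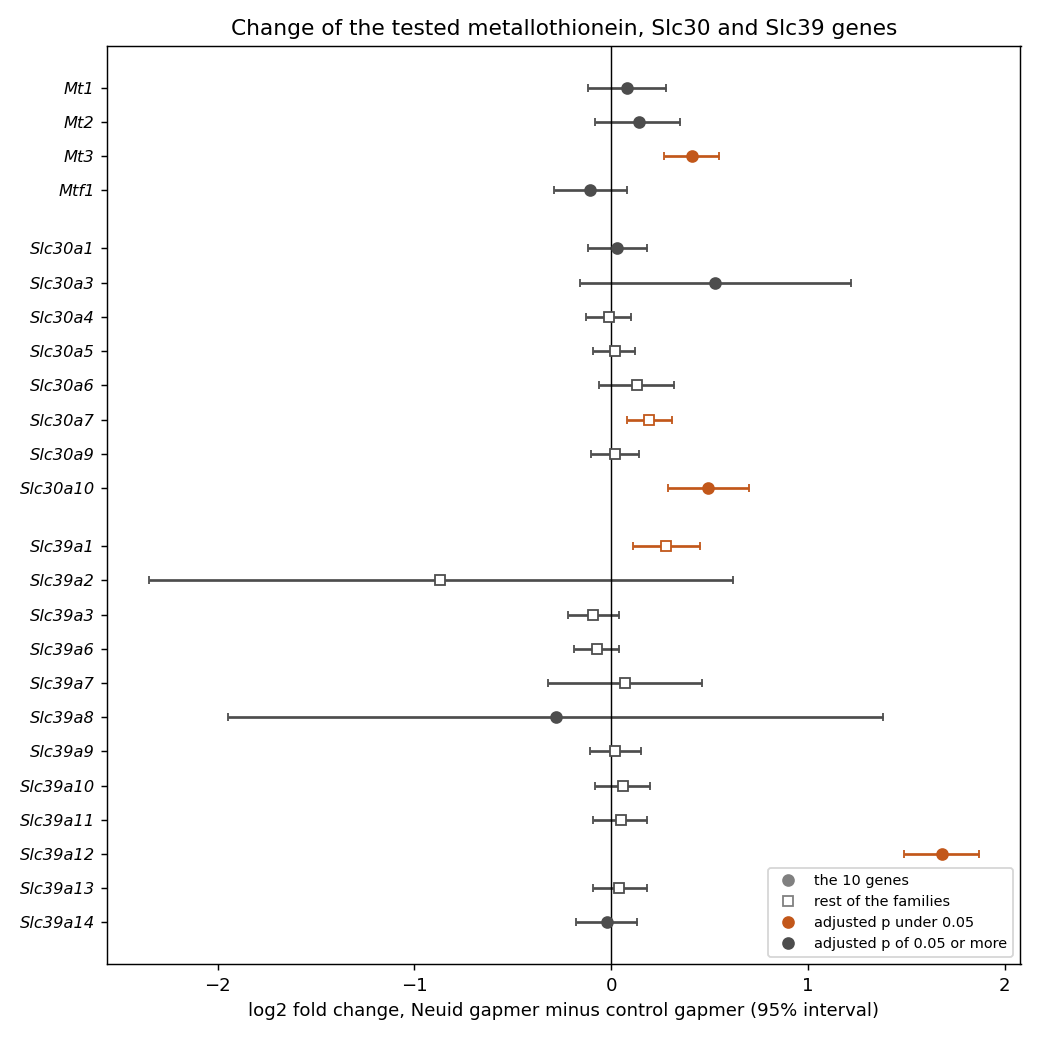
Log2 fold change (Neuid KD minus control) with its 95% interval for the 24 tested genes of the 3 families and Mtf1, with filled circles for the 10 genes, open squares for the rest and orange for an adjusted p under 0.05. Slc39a12 stands at 1.68, Slc30a10 and Mt3 at 0.49 and 0.41, and the intervals of most others span 0.

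Genes for other metals were looked at next, since ZnT10, ZIP8 and ZIP14 also carry manganese or iron. All 17 genes of a list for copper, iron and manganese were tested, 3 rose and 2 fell (median log2 fold change 0.07), beside 6.31% higher and 2.42% lower among all tested genes. The falls were larger than the rises. Slc40a1, the gene of the iron exporter ferroportin, fell from 5.39 ± 0.811 to 3.21 ± 0.543 CPM (SD, n = 6 each), or a log2 fold change of -0.76 (adjusted p = 0.00161 from edgeR), and its groups did not overlap. Cp, the gene of ceruloplasmin, a copper enzyme that oxidises iron for export, fell from 7.65 ± 1.22 to 4.60 ± 1.34 CPM, also by 0.76 on the log2 scale (adjusted p = 0.00566 from edgeR), with an overlap between the groups. It overlaps Hps3 on the opposite strand. Slc31a1 (the copper importer CTR1), Aco1 (an iron-sensing RNA-binding protein in its iron-free form) and Atp2c1 (a Golgi pump for calcium and manganese) each rose by a log2 fold change of 0.20, with adjusted p of 0.0470, 0.0188 and 0.0447 from edgeR. These 3 calls were kept in 5, 12 and 8 of 23 alternative fits, and leaving out any 1 library left 2 to 4 of the 5 calls. Within high background libraries Slc40a1 was at -0.61 and not called.

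Metallothionein genes also respond to oxidative stress and to glucocorticoids, so both sets of genes were counted. Of 12 genes for NRF2 and its targets, all tested, none rose and 1 fell (median log2 fold change 0.03), beside 6.31% higher and 2.42% lower among all tested genes. The gene that fell was Slc7a11, the cystine-glutamate exchanger, which went from 10.9 ± 2.17 to 7.33 ± 1.19 CPM (SD, n = 6 each; log2 fold change -0.57, adjusted p = 0.00963 from edgeR). At an unadjusted p under 0.05 edgeR gave 3 higher genes. DESeq2 called 1 higher, and so did edgeR without control replicate 4. In both cases it was Nfe2l2, the gene of NRF2 itself (log2 fold change 0.28 with DESeq2 and 0.35 without that library). Nfe2l2 was also called higher with an RUVs factor (0.29), a replicate block (0.30), the background covariate (0.31) and thinning (0.35). Within low background libraries Nfe2l2 was called higher too (0.38), whereas Slc7a11 was not called there. Of 11 genes for the glucocorticoid receptor and its usual targets, 10 were tested, 3 rose and 1 fell (median log2 fold change 0.08), beside the same shares of all tested genes. DESeq2 called 3 higher and 3 lower, the further ones being Per1 (-0.20) and Zbtb16 (-0.18), which were named after their values were seen. Both were also called lower by edgeR with upper-quartile scaling (-0.24 and -0.23), the background covariate (-0.19 and -0.17) and thinning (-0.22 for each). Nr3c1, the receptor gene, rose by a log2 fold change of 0.38 (adjusted p = 2.11e-04 from edgeR). Tsc22d3 rose from 8.14 ± 0.883 to 17.5 ± 2.15 CPM and Pdk4 from 1.57 ± 0.309 to 3.26 ± 0.476 CPM, log2 fold changes of 1.11 and 1.05 (adjusted p = 1.62e-07 and 0.00130 from edgeR). Cdkn1a fell by 0.48 on the log2 scale (adjusted p = 4.44e-04 from edgeR). None of these 4 genes had an overlap between the groups. Of all tested genes, 4.13% had no overlap with Neuid KD higher and 1.57% had none with Neuid KD lower. The remaining tested genes of the list did not pass the test in the main edgeR fit. Their log2 fold changes were 0.13 (Nr3c2), 0.07 (Fkbp5), 0.10 (Klf9), -0.11 (Sgk1), -0.18 (Per1) and -0.17 (Zbtb16). Within high background libraries Pdk4 was not called. For Mt1 and Mt2 the groups overlapped. A part of glucocorticoids in these values was not tested.

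The metallothionein genes lie together on chromosome 8, in a span of 43.1 kb from Mt4 to Mt1, and protein-coding genes within 200 kb of that span were compared with Mt3. Gnao1 (log2 fold change 0.06), Ogfod1 (0.10), Nudt21 (-0.10), Bbs2 (-0.01), Nup93 (-0.12) and Slc12a3 (-0.61) did not pass the test, and the signs of Bbs2 and Slc12a3 changed under some alternatives.

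The 10 genes were then set against markers of the main cell types of the culture, by taking the log2 CPM of each gene minus the mean log2 CPM of the tested markers in the same library. No test was made on these differences. The mean of the 11 astrocyte markers was higher by 1.13 in Neuid KD, from 5.90 to 7.03 log2 CPM, and that of the 10 neuron markers by 0.01, from 8.50 to 8.51 log2 CPM. Relative to astrocyte markers, Slc39a12 was higher by 0.57 in Neuid KD, from a control range of -3.92 to -3.37 to a range of -3.22 to -2.93, which did not overlap. All other members were lower relative to these markers, although Slc30a3 and Slc39a8 overlapped between the groups. Mt3 was lower by 0.71 and Slc30a10 by 0.63, while Mt1 and Mt2 were lower by 1.05 and 0.99. No member other than Slc30a3 and Slc39a8 had an overlap between the groups on this scale. Since the marker mean itself rose by 1.13, a gene with little change of its own comes out lower here. The share of all genes without an overlap on this scale was not counted. Relative to neuron markers, differences were close to the plain log2 fold changes, at 1.68 for Slc39a12, 0.49 for Slc30a10, 0.41 for Mt3 and 0.07 for Mt1.
The astrocyte markers did not move as a unit. Gja1 and Aqp4 rose by log2 fold changes of 2.27 and 2.10, Slc4a4 by 1.55, Fgfr3 by 1.32, Aldh1l1 by 1.31 and Slc1a3 by 1.25, whereas Slc1a2 rose by 0.63, Gfap by 0.59, and Aldoc and Sox9 by 0.47 each. The 11th tested marker, Ntsr2, was at 0.41 and did not pass the test (interval 0.07 to 0.76, adjusted p = 0.159 from edgeR). The log2 fold change of Slc39a12 (1.68) was within the range of the 11 markers and that of Mt3 (0.41) at its lower end, while that of Mt1 was 0.08. Of the 10 neuron markers, none rose and 1 fell, beside 6.31% higher and 2.42% lower among all tested genes. The 1 that fell was Elavl4, by 0.21 on the log2 scale (adjusted p = 0.0161 from edgeR). That call was kept in 15 of 23 alternative fits. Among the losses were those when control replicate 2, 3, 5 or 6 or Neuid KD replicate 2 was left out (-0.23 to -0.19). Of the neuron markers, 1 was higher at an unadjusted p under 0.05, and DESeq2 called 0 higher and 1 lower, or 1 higher and 2 lower with an RUVs factor. The summed level of the 10 neuron markers was between 5820 and 6850 CPM in control and between 5720 and 6820 CPM in Neuid KD.

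**Figure D5:**
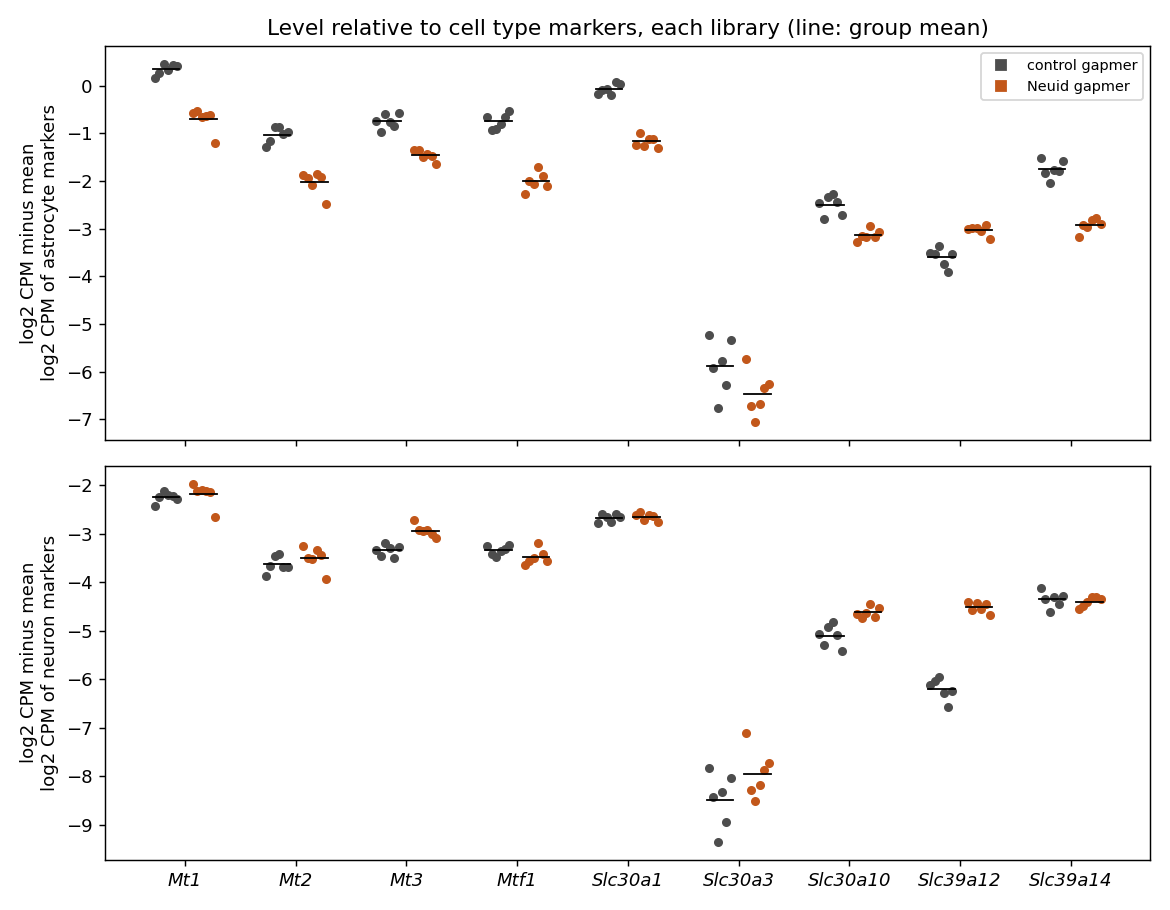
Log2 CPM of each gene minus the mean log2 CPM of astrocyte markers (top) or neuron markers (bottom) in each library, with a line at the mean of each group, for 9 of the 10 genes (Slc39a8 is left out for its low counts). Against astrocyte markers Slc39a12 is higher by 0.57 in Neuid KD and the others are lower, and against neuron markers Slc39a12, Mt3 and Slc30a10 are higher.

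Across the 12 libraries, the genes whose log2 CPM followed that of Slc39a12 most closely, among genes at a mean of at least 1 CPM, were Slco1c1 (Pearson r = 0.994), Npas3 (r = 0.991) and Ntm (r = 0.990). Slco1c1 codes for a thyroid hormone transporter of brain vessels and astrocytes, Npas3 for a transcription factor and Ntm for a cell adhesion protein. All 3 differ between the groups, which all these points share. For Mt1 the closest were Swi5 (r = 0.942), Zmym5 (r = 0.938) and Hint1 (r = 0.923), and the lowest Mt1 libraries were control replicate 1 and Neuid KD replicate 6. These correlations are descriptions over libraries that also share depth and background.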

How the data were processed

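Total RNA of 12 libraries (SMARTer Stranded Total RNA-Seq v2 Pico) was sequenced by the authors, aligned with STAR to mm10 (GRCm38) and counted per gene with featureCounts; the deposited values are raw counts, without normalization, and the strand setting is not given in the sources used here. All 12 rows of the table matched a sample. Of 55471 genes, 55230 had a symbol and position in GENCODE vM21. Counts were tested with edgeR 4.0.16 in R 4.3.3 (filterByExpr, TMM, quasi-likelihood test, group as the only term, Benjamini-Hochberg adjustment over 19578 genes, adjusted p under 0.05). Intervals are 95% and come from the same fit. CPM uses TMM-scaled library sizes. The ratio of Mt1 to Mt2 was tested by exact permutation in scipy 1.17.1.

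The named genes are the 10 members, every called gene of the other lists (or the gene with the smallest p where none was called), the genes near the Mt cluster (1 of which is not reported here) and the closest correlates of Slc39a12 and Mt1. Further genes of the lists are given where a list is described. The members, lists and alternatives were chosen with earlier results of these data known. Alternatives were RLE and upper-quartile scaling, DESeq2 1.42.0 with and without 1 RUVs factor (the study used DESeq2 with RUVSeq), no filter, a replicate block, the background as a covariate, each background class alone, GC and length offsets, thinning to 11152556 reads and leaving out each library. Depth limits the genes under about 1 CPM. Statements on error cover these libraries only.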

Additional observations from a re-analysis of the deposited data

Results flagged for a closer look

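In groups of 6 libraries, 106 groups of values were examined for a library far from the rest, and 6 were found. About 5% of the 106 groups would be flagged by chance alone, so the number found is near what chance gives. The lowest Mt1 value in Neuid KD was that of replicate 6, at 58.4 CPM against 81.5 to 88.1 CPM in the others, and the same library was lowest for Mt2, at 23.9 CPM against 32.8 to 37.3 CPM. Slc40a1 was highest in control replicate 1, at 6.92 CPM against 4.53 to 5.42 CPM. Slc1a2 was lowest in Neuid KD replicate 1, at 1420 CPM against 1820 to 2000 CPM, and so was Ogfod1, at 28.7 CPM against 34.1 to 36.7 CPM. Nup93 was highest in control replicate 5, at 41.8 CPM against 31.4 to 34.5 CPM.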

How the results depend on the processing

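Neuid and Slc39a12 kept their direction and call in each of 23 alternative fits, and Mt3 and Slc30a10 in 22, the exception being GC and length offsets. With these offsets the counts of called genes were 1 for the 10 genes, 0 for the other zinc family genes, 2 for copper, iron and manganese, 0 for NRF2 and 2 for glucocorticoid genes; that fit called 396 genes higher and 103 lower in the whole table, and the cause was not tested. A log2 fold change above 0.5 left 1 of the 10 genes and 0 of the other zinc family. The other zinc family count was 0 with RLE size factors, without a filter, within high background libraries and after thinning, 1 with upper-quartile scaling and 1 with a replicate block. The copper, iron and manganese count was 3 with RLE, 2 without a filter and 1 within high background libraries. The NRF2 count was 2 with DESeq2, with 1 RUVs factor, with the block, with the background covariate and after thinning. In each of these fits the 2 genes were Slc7a11 (lower) and Nfe2l2 (higher). Leaving out each library in turn gave counts of 3 for the 10 genes, 0 to 1 for the other zinc family, 2 to 4 for copper, iron and manganese and 1 to 2 for NRF2 (2 without control replicate 4). It gave a change of the log2 ratio of Mt1 to Mt2 of -0.10 to -0.04, and without control replicate 4 the value of -0.10 passed the exact permutation test (p = 0.0346).

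Among genes that did not pass the test, signs changed. Slc30a1 was at -0.03 with upper-quartile scaling, -0.01 with the RUVs factor and -0.05 within low background libraries (-0.01 to 0.07 with each library left out). Slc39a8 was at 0.32 with the RUVs factor, 0.19 with the background covariate and 0.02 within high background libraries (-0.73 to 0.11 with each library left out, the 0.11 without control replicate 4), and was not tested within low background libraries. Slc39a14 was at 0.09 within low background libraries (-0.07 to 0.00). Bbs2 was at 0.04 within high background libraries, 0.06 with offsets and 0.11 after thinning (-0.08 to 0.04). Slc12a3 was at 0.15 with the RUVs factor and 0.88 within low background libraries. Same-numbered libraries share only a number: 2 of 6 pairs correlated above 0.1, from -0.637 to 0.774. With the replicate block 1299 genes were called higher and 542 lower, and the Mt3 call was kept. The log2 ratio of Mt3 to Mt2, chosen after its values were seen and given as a description only, was higher by 0.28 in Neuid KD. Pairing libraries by number cannot change this difference of means, so the block says nothing about how stable it is. Slc30a3 was at 0.32 after thinning. Slc30a3 and Slc39a8 rest on under 60 reads in every library.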

Other observations

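Most markers of cell types other than neurons and astrocytes were low, and in control the highest were Olig1 (78.2 CPM) and the fibroblast marker Dcn (21.6 CPM). Of 6 markers of oligodendrocyte precursors, all tested, 2 rose and none fell, beside 6.31% higher and 2.42% lower among all tested genes. Olig1 and Olig2 rose, from 78.2 ± 8.49 to 216 ± 11.7 CPM and from 10.5 ± 1.33 to 33.6 ± 1.93 CPM (SD, n = 6 each, log2 fold changes 1.47 and 1.67, adjusted p = 1.29e-10 and 8.82e-11 from edgeR). None of the 6 fell in edgeR at an unadjusted p under 0.05 or with DESeq2 either. The summed level of the 6 went from between 96.3 and 115 CPM to between 247 and 292 CPM, mostly through Olig1. Pdgfra, Cspg4, Sox10 and Gpr17 were at 6.69, 8.08, 1.04 and 1.04 CPM in control. They did not pass the test in edgeR (log2 fold changes 0.44, 0.16, 0.09 and -0.77). At an unadjusted p under 0.05 edgeR gave 3 higher genes of the 6, Pdgfra being the one besides Olig1 and Olig2. DESeq2 called 2 of the 6 higher, or 3 with an RUVs factor. Of 8 microglia markers 4 were tested and none was called, with a summed level of 6.60 to 13.6 CPM in control and 5.80 to 13.1 CPM in Neuid KD. P2ry12, C1qa, C1qb and Tmem119 were under 1 CPM in every library. The gene with the smallest p was Aif1 (log2 fold change -0.31, adjusted p = 0.276 from edgeR). Of 7 endothelial markers 5 were tested and none was called (Pecam1, log2 fold change -1.01, adjusted p = 0.413 from edgeR; summed level 6.57 to 22.7 CPM in control and 7.02 to 22.2 CPM in Neuid KD). Fibroblast and mural markers (8, all tested, none called; Col3a1, log2 fold change -0.91, adjusted p = 0.280 from edgeR) summed to 37.8 to 66.5 CPM and 34.0 to 55.7 CPM, and choroid and ependymal markers (6, all tested, none called; Rsph1, log2 fold change -0.28, adjusted p = 0.122 from edgeR) to 14.5 to 22.6 CPM and 14.0 to 24.0 CPM. At an unadjusted p under 0.05, edgeR gave no gene of the microglia, endothelial or fibroblast and mural lists and 1 lower choroid and ependymal gene. DESeq2 called 1 of the latter lower (Rsph1), and with an RUVs factor it also called 1 endothelial and 1 fibroblast or mural gene lower. Leaving out Neuid KD replicate 2 brought Rsph1 past the threshold in edgeR (log2 fold change -0.38).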
